A study of Homo sapiens with 15 samples.

Results

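The 40 genes described here build and control the mitotic spindle: cyclin-dependent and other kinases of mitotic entry, spindle checkpoint genes, centromere and kinetochore genes, the chromosomal passenger complex, spindle and midzone motors, anaphase-promoting complex genes and the proliferation marker MKI67. They were taken from a fixed list of symbols, matched to Ensembl gene identifiers, and all 40 were found among the 31352 identifiers of the count table. All 40 were also among the 15122 genes that passed the filter on low counts, and the lowest value of any of them in any library was 39 reads. RNA was measured by polyA RNA-seq in 15 libraries of a human cell line, with 3 libraries in each of 5 groups. The control group carries an empty vector (EV), and the other groups, NICD1 to NICD4, were induced with doxycycline to express an intracellular domain (NICD), the released active part of a NOTCH receptor, of NOTCH1 to NOTCH4 respectively. Dose and duration of doxycycline are not given in the labels, nor is it stated whether EV cells received it or whether the 3 libraries of a group came from separate cultures, so the p-values measure the spread between these libraries only.

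A cell enters mitosis when CDK1 bound to cyclin B becomes active, with PLK1 and the Aurora kinases. Kinetochores, built on CENPA nucleosomes at the centromere, bind microtubules through the NDC80 complex, and unattached kinetochores hold the spindle checkpoint active through TTK, BUB1, BUB1B, BUB3 and MAD2L1. Once every chromosome is attached, CDC20 activates the anaphase-promoting complex, which marks securin (PTTG1) and cyclin B for destruction, and the midzone proteins PRC1, KIF23, KIF20A and ECT2 then organise cytokinesis. Transcripts of most of these genes rise together in late S and G2 phase under the DREAM complex, the MYBL2 and MuvB proteins and FOXM1, through promoter elements known as the CHR and the CCAAT box. In a bulk sample, fewer cells in G2 or mitosis and less RNA per cell cannot be told apart.

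The labels disagree on the cells. The cell line field gives HCT116, a colorectal carcinoma line, while the sample descriptions give U373, a name used for a glioblastoma line. The epithelial markers KRT8, KRT18, KRT19, EPCAM and CDX2 were present in every library, whereas AQP4, SOX2 and OLIG2, markers of glial cells, were at 0 in all 12 NICD libraries and did not exceed 0.0915 CPM (the count relative to library size, scaled by the trimmed mean of M values, TMM) in EV. The 13 colorectal markers in the table summed to 2140 to 2700 CPM in EV and to 9570 to 23100 CPM in the NICD groups. Most of each sum came from KRT8, KRT18 and KRT19, with KRT8 alone at 971 to 1240 CPM in EV and 11500 to 14900 CPM in NICD3. CDX2 and CDH1 were also higher in every NICD group. EPCAM in NICD4 (121 to 173 CPM) overlapped EV (146 to 161 CPM), and VIL1 was lower in NICD1 and NICD3 (0.188 to 0.547 CPM) than in EV (0.756 to 1.19 CPM). CDX1 was at 0 in every EV, NICD1, NICD2 and NICD3 library and at most 0.0893 CPM in NICD4, and CEACAM5, MUC13, GPA33 and LGALS4 did not exceed 0.386 CPM anywhere. Of the glial list, NES (20 to 45.1 CPM), SLC1A3 (10.7 to 57 CPM), BCAN (3.73 to 11.3 CPM) and GFAP (0.892 to 6.79 CPM) were present in all NICD libraries, and the labelled line was not settled by these lists. The vimentin gene VIM ran the other way, with 21.8 to 22.2 CPM in the control and no more than 2.29 CPM in any NICD library. Summed glial markers were 77.5 to 80.3 CPM in EV and 48.6 to 83.5 CPM in the NICD groups, and the fibroblast and leukocyte lists summed to at most 21.2 and 5.18 CPM. KRT8, KRT18, KRT19, CDX2 and VIM separate EV from all NICD groups, as many of the mitotic genes do, while EPCAM and the glial sum do not. The part of these marker differences in the mitotic results was not tested.

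The targeted genes gave little check of the group labels. NOTCH1 was at 26.8 to 30.0 CPM in the libraries labelled NICD1 and at 29.01 to 32.7 CPM in EV. NOTCH3 was at 11.48 to 12.03 CPM in NICD3 against 9.70 to 11.46 CPM in EV, just above it. It was higher in NICD1 (12.04 to 12.98 CPM) and NICD4 (12.86 to 14.71 CPM) than in NICD3. NOTCH4 was at 1.79 to 2.19 CPM in NICD4 against 1.33 to 2.19 CPM in EV. NOTCH2 lay above EV throughout its own group by more, at 40.4 to 42.8 CPM in NICD2 against 30.7 to 33.6 CPM. It was also above EV in NICD4, at 38.8 to 39.6 CPM, and in NICD1, at 35.6 to 37.9 CPM. Whether reads from the vectors enter these counts is not stated. NICD4 replicate 1 carries NICD4 in its title and description and NICD3 in other fields. In that library NOTCH1 was at 30.27 CPM and NOTCH2 at 39.29 CPM. NICD4 replicates 2 and 3 had 30.72 and 30.45 CPM of NOTCH1 and 39.59 and 38.83 CPM of NOTCH2. NICD3 libraries had 22.77 to 23.56 CPM and 29.54 to 32.48 CPM. Its NOTCH3 (12.86 CPM) lay between those libraries and its NOTCH4 (1.79 CPM) below all of them. The library was kept in NICD4, and group names below are the labels.

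The 40 genes did not move as a block. In every NICD group more of the 40 genes were lower than higher. Against EV, 25 genes fell and 9 rose in NICD1, 18 fell and 6 rose in NICD2, 22 fell and 10 rose in NICD3, and 27 fell and 10 rose in NICD4, at an adjusted p under 0.05 by limma over all 15122 genes tested. Those counts stand against a large background: of all genes tested, 40.7% fell and 34.6% rose in NICD1, 31.1% and 28.6% in NICD2, 36.8% and 32.5% in NICD3, and 45.2% and 35.7% in NICD4. The median log2 change of the 40 genes was -0.69, -0.27, -0.44 and -0.99 in NICD1 to NICD4, where all genes had medians of -0.11, -0.05, -0.08 and -0.18. All 4 comparisons share the 3 EV libraries.

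Each library's scale matters to these counts. Scaling by library total without TMM factors moved the median of all genes by -0.42, -0.26, -0.40 and -0.48 on the log2 scale, and then 31, 28, 27 and 30 of the 40 genes fell and 6, 3, 6 and 5 rose in NICD1 to NICD4, where 56.1%, 44%, 54.6% and 58.6% of all genes fell and 21.9%, 18.8%, 19.9% and 24.1% rose. Removal of a per-library trend on transcript GC content moved the median of all genes by 0.23, 0.19, 0.19 and 0.28. Of the 40 genes, 17, 11, 12 and 22 then fell and 15, 14, 17 and 15 rose. In NICD1 and NICD4 more of the set still fell than rose, whereas fewer of all genes fell than rose. In NICD2 and NICD3 fewer of the set fell than rose. After that removal 29%, 22.4%, 27.3% and 33.4% of all genes fell and 41.7%, 38.6%, 39.2% and 41.7% rose. The median change of all genes was then above 0, at 0.12, 0.13, 0.10 and 0.10, so small rises after GC removal lie near that of the typical gene. Settings that turn the sign of a called change, and calls lost after GC removal, are given beside the gene below or in the closing sections. In NICD2 the count also rested on single libraries: 9 genes fell without NICD2 replicate 1 and 10 without EV replicate 2, and 3 rose without NICD2 replicate 3.

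**Figure D1:**
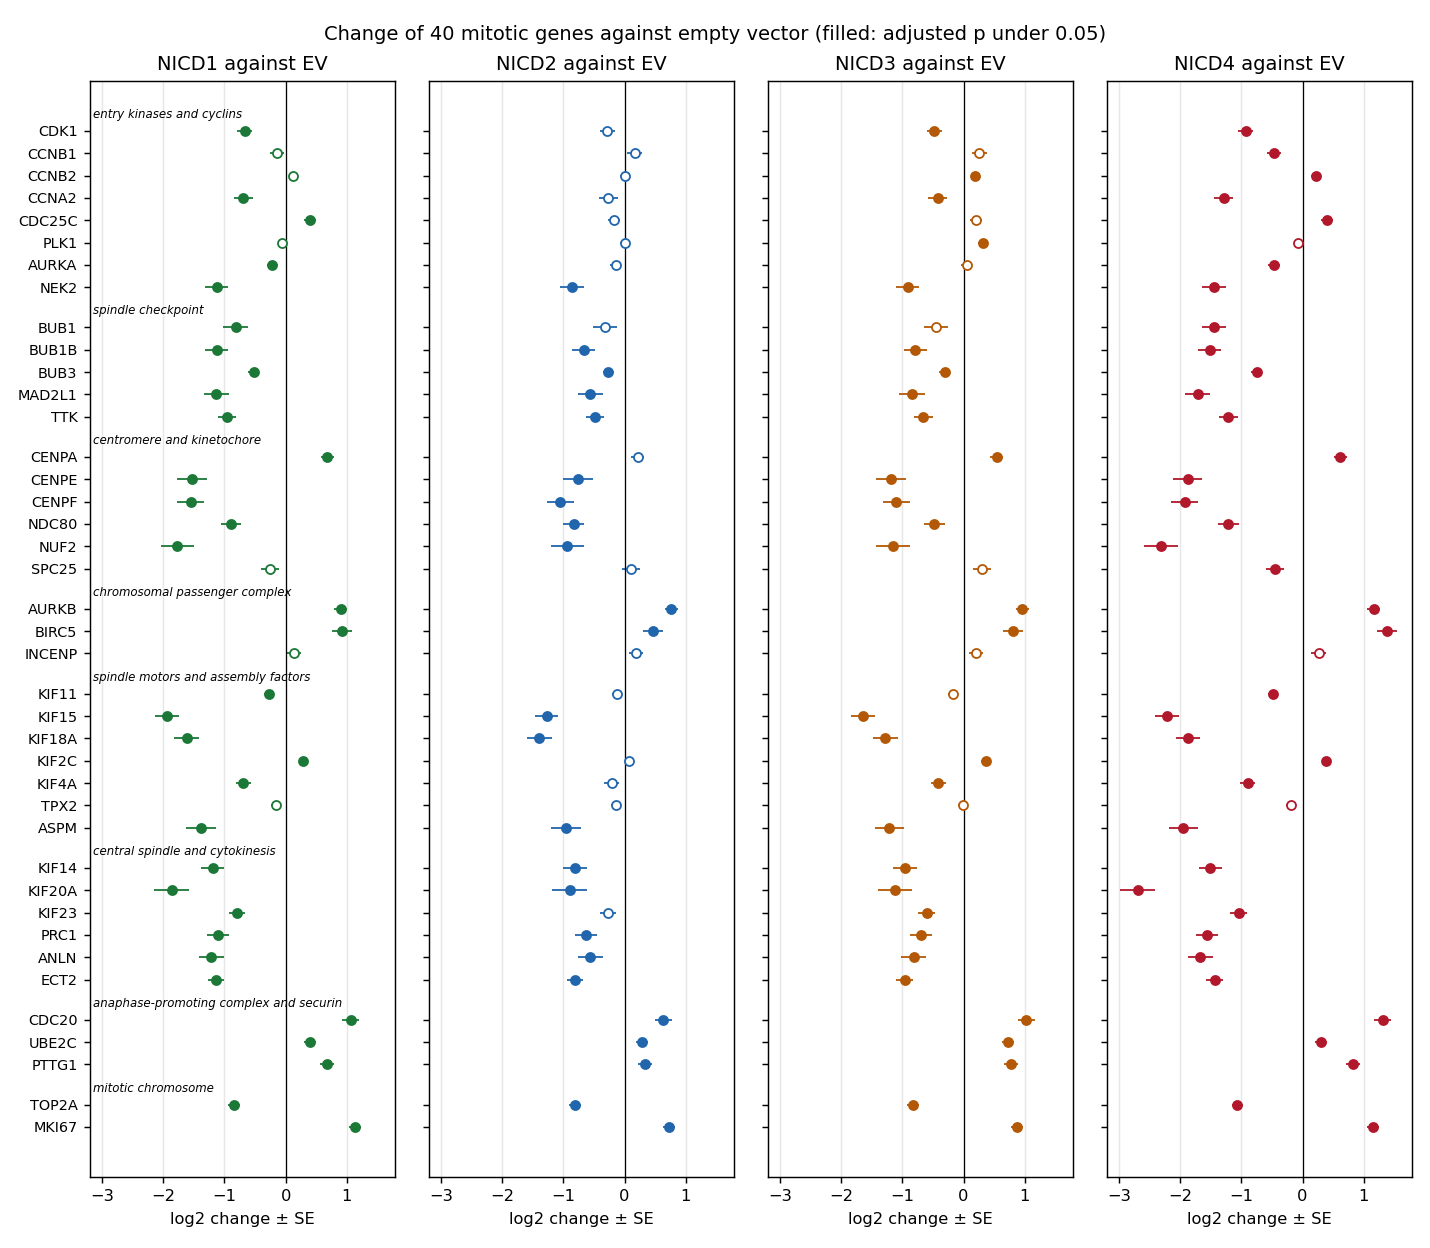
Log2 change against EV ± SE of the 40 genes, ordered by role, in NICD1 to NICD4 (4 panels, 3 libraries a group); filled points passed the adjusted p threshold of 0.05. CDC20, UBE2C, PTTG1, AURKB, BIRC5 and MKI67 lie to the right of 0 in each panel and the midzone genes to the left.

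The 6 genes called higher in all 4 NICD groups were CDC20, UBE2C, PTTG1, AURKB, BIRC5 and MKI67, 6 of 40 against 22.1% of all genes tested. The 18 called lower in all 4 groups, against 24.4% of all genes, were NEK2, BUB1B, BUB3, MAD2L1, TTK, CENPE, CENPF, NDC80, NUF2, KIF15, KIF18A, ASPM, KIF14, KIF20A, PRC1, ANLN, ECT2 and TOP2A. INCENP and TPX2 were called in none, against 7.3% of all genes. No gene of the set was called higher in 1 NICD group and lower in another. The share of all genes for this count is not given here, and the shared EV libraries tie the 4 comparisons together. The risers were the more abundant transcripts in EV, with 19.2 to 198 CPM per kilobase of exon and a median of 86.9, while the 18 that fell had 1.83 to 35.3 with a median of 12.2.

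CDC20, UBE2C and PTTG1, which act with or under the anaphase-promoting complex, rose in every NICD group. CDC20, the activator that also receives the checkpoint signal, was the most abundant of the 40 per kilobase of exon in EV. The gene (ENSG00000117399) lies at chr1:43824599-43828874 on GRCh37, the build of the count table. It had 446.5, 369.8 and 393.5 CPM in EV, 818, 965 and 756 in NICD1, 649.5, 578 and 649 in NICD2, 926, 775 and 764 in NICD3, and 1243, 858 and 936.5 in NICD4. Every NICD library lay above every EV library. The log2 changes were 1.07, 0.64, 1.03 and 1.31 (SE 0.14 each, limma adjusted p from 6.7e-07 to 0.0012), which correspond to 2.09-fold, 1.55-fold, 2.04-fold and 2.49-fold levels.

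PTTG1, the securin that holds separase inactive until anaphase, rose by 0.68, 0.33, 0.78 and 0.82 on the log2 scale (SE 0.12). Its NICD2 libraries, at 310, 238 and 301.5 CPM, overlapped EV at 259, 193 and 223 CPM, and the NICD2 call was lost without EV replicate 2 or without NICD2 replicate 1 or 3 (limma adjusted p from 0.0507 to 0.0901). The related genes PTTG2 and PTTG3P are close copies, and PTTG3P was counted with at most 3 reads in a library. UBE2C, the ubiquitin-conjugating enzyme of the complex, had the smallest rises of these genes, 0.41, 0.29, 0.73 and 0.30 (SE 0.10). It had 252, 199 and 217 CPM in EV and 241.5, 309 and 271 CPM in NICD4, so that these groups overlapped. Its NICD4 call was lost without EV replicate 2 or NICD4 replicate 2 and its NICD2 call without EV replicate 2, EV replicate 3 or NICD2 replicate 3, and under library-total scaling the change was -0.02 in NICD1 and -0.19 in NICD4.

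In the chromosomal passenger complex, which corrects faulty microtubule attachments, the kinase and its survivin subunit rose and the scaffold did not pass the test. BIRC5 (survivin) had 254.5, 219 and 237.5 CPM in EV and 805, 501 and 578 CPM in NICD4, with no overlap. Its log2 changes were 0.93, 0.47, 0.80 and 1.38 (SE 0.16; limma adjusted p from 2.2e-06 to 0.022), and the NICD2 call was lost without NICD2 replicate 3 (adjusted p = 0.0823). AURKB, the kinase, had 93.7, 69.2 and 80.2 CPM in EV and 121 to 197 CPM over the 12 NICD libraries, all higher. Its changes were 0.91, 0.77, 0.96 and 1.17 (SE 0.11; limma adjusted p from 2e-07 to 3.2e-05). INCENP, the scaffold that binds AURKB, had 22.3, 27.5 and 26.7 CPM in EV and 31.6, 26.5 and 33.8 in NICD4. Its changes of 0.14, 0.19, 0.20 and 0.26 (SE 0.12) did not pass (adjusted p from 0.053 to 0.30), and without the GC trend the NICD4 value was -0.34 (limma adjusted p = 0.031).

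The chromosome-bound proteins of the set moved apart. MKI67 (ENSG00000148773; chr10:129894923-129924649 on GRCh37), which encodes the Ki-67 antigen that coats mitotic chromosomes, had 245, 252 and 239.6 CPM in EV, 518.5, 589.7 and 509.8 in NICD1, 418, 363 and 436.5 in NICD2, 454, 451 and 446.5 in NICD3, and 622, 492.5 and 532 in NICD4. No NICD library overlapped EV, and among the NICD groups only NICD1 and NICD4 overlapped each other. The changes were 1.13, 0.72, 0.88 and 1.15 (SE 0.10, limma adjusted p from 1e-07 to 2.4e-05). TOP2A, the topoisomerase that untangles sister chromatids, had 100.4, 129 and 123 CPM in EV and 50.3, 62.5 and 55.1 in NICD4. It fell by 0.84, 0.82, 0.83 and 1.06 on the log2 scale (SE 0.10), and without the GC trend the changes were -0.03, -0.33, -0.19 and -0.07, with calls in NICD2 and NICD3 only.

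**Figure D2:**
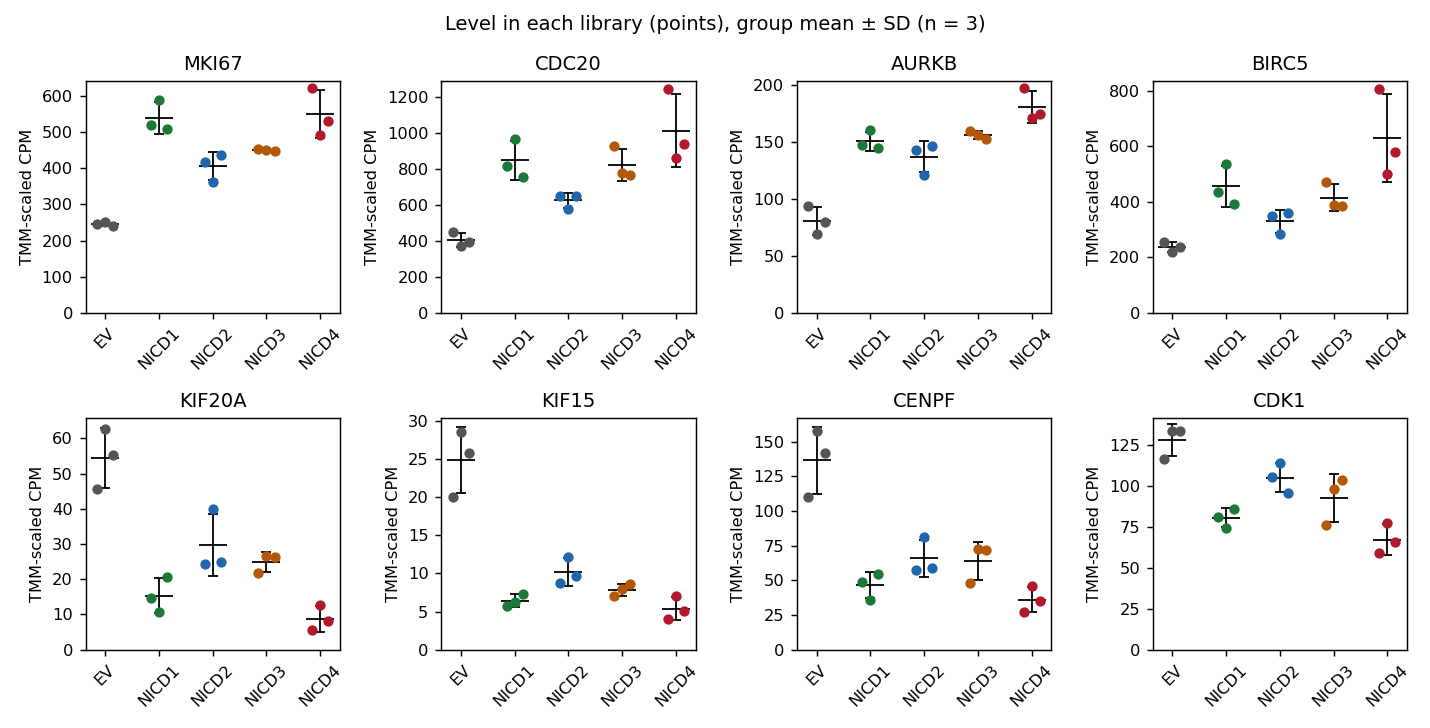
TMM-scaled CPM of 8 of the genes in each library as a point, with group means ± SD as bars (n = 3), on axes that start at 0. MKI67, CDC20, AURKB and BIRC5 lie above EV in all 12 NICD libraries, and KIF20A, KIF15, CENPF and CDK1 below it.

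All 5 spindle checkpoint genes were lower in NICD1 and NICD4, and 4 of 5 in NICD2 and NICD3, where BUB1 did not pass. MAD2L1, which captures CDC20 in the checkpoint complex, had the largest fall of the group in all but NICD2. It had 130, 148 and 151 CPM in EV, 67.5, 55.8 and 73.6 in NICD1, 91.8, 113 and 87.2 in NICD2, 68.6, 85.8 and 85.2 in NICD3, and 28.7, 61.4 and 46.6 in NICD4. No NICD library reached the EV range. The changes were -1.13, -0.56, -0.85 and -1.71 (SE 0.21; limma adjusted p from 2.6e-06 to 0.030).

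BUB1B, the BUBR1 pseudokinase of the checkpoint complex, changed by -1.12, -0.66, -0.79 and -1.52, and TTK, the kinase that starts checkpoint signalling, by -0.96, -0.48, -0.66 and -1.21. BUB1, the kinase that recruits the others to kinetochores, changed by -0.82 in NICD1 and -1.45 in NICD4 and by -0.31 and -0.45 (adjusted p 0.18 and 0.056) in NICD2 and NICD3. BUB3, their shared adaptor, had the smallest change, with 285, 297 and 297 CPM in EV and 154, 195 and 175 in NICD4. It fell by 0.52, 0.26, 0.31 and 0.75 on the log2 scale (SE 0.09), and after removal of the GC trend it was higher instead, by 0.20, 0.17, 0.26 and 0.14, all called. The medians of all genes after that removal were 0.12, 0.13, 0.10 and 0.10. Without that trend MAD2L1 and TTK were called lower in NICD1 and NICD4 only, BUB1B in all but NICD2, and BUB1 in NICD4 only. In NICD2 several calls depended on the libraries used: MAD2L1 and BUB3 were lost without any of the 3 EV libraries or NICD2 replicate 1 or 3, TTK without EV replicate 2 or 3 or NICD2 replicate 1 or 3, and BUB1B without EV replicate 2 or NICD2 replicate 1 (limma adjusted p from 0.0504 to 0.154). BUB3 in NICD3 was lost without EV replicate 2 or 3.

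At the kinetochore CENPE, CENPF, NDC80 and NUF2 fell in all 4 groups, SPC25 fell in NICD4 only, and the centromeric histone gene CENPA rose in 3 groups. NUF2, which pairs with NDC80 to hold microtubules, had 44.0, 53.0 and 50.9 CPM in EV, 16.3, 8.94 and 20.4 in NICD1, 21.7, 32.9 and 23.7 in NICD2, 16.7, 24.9 and 25.8 in NICD3, and 7.68, 13.4 and 9.12 in NICD4. Its changes were -1.77, -0.94, -1.16 and -2.32 (SE 0.27; limma adjusted p from 2.2e-06 to 0.0089), and no NICD library reached the EV range. CENPF, a large protein of the outer kinetochore and nuclear envelope, changed by -1.56, -1.05, -1.10 and -1.93, and was still called lower in all 4 groups after removal of the GC trend (-0.81, -0.60, -0.51 and -1.005). CENPE, the kinetochore kinesin, changed by -1.53, -0.76, -1.19 and -1.88. The NICD2 calls of NUF2 and CENPE were lost after GC removal (limma adjusted p 0.058 and 0.18) and when NICD2 replicate 1 was left out, and that of CENPE also without EV replicate 2, EV replicate 3 or NICD2 replicate 3.

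NDC80 itself changed by -0.89, -0.83, -0.48 and -1.21 (SE 0.17), a value that turned to 0.14 in NICD3 after GC removal. Its NICD1 call was lost with that removal (-0.12), and the NICD2 and NICD4 calls were kept. The NICD3 call was also lost without EV replicate 2 or 3 or NICD3 replicate 1 (limma adjusted p from 0.0746 to 0.111). SPC25, another subunit of the same complex, was the least changed, with -0.26, 0.11, 0.30 and -0.45 (SE 0.14), called in NICD4 only. It had 27.9, 30.0 and 33.1 CPM in EV, 34.4, 37.0 and 40.8 in NICD3 and 17.8, 28.1 and 21.4 in NICD4. The NICD4 fall was lost without EV replicate 3 or NICD4 replicate 1, and without the GC trend SPC25 was higher in every NICD group (0.52, 0.57, 0.92 and 0.51, all called). CENPA, the histone H3 variant that marks centromeres, had 32.02, 30.05 and 31.55 CPM in EV and 50.3, 54.4 and 46.2 in NICD1, with no overlap. It rose by 0.68, 0.55 and 0.61 in NICD1, NICD3 and NICD4 (SE 0.11), and its value of 0.21 in NICD2 did not pass (adjusted p = 0.095). Some exon sequence of CENPA is shared with SLC35F6 on the same strand.

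Spindle motors differed among themselves, with 3 genes of the role lower in all 4 groups and KIF2C higher in 3. KIF15, a kinesin that can help to hold the spindle poles apart, had 20.1, 28.5 and 25.8 CPM in EV, 5.67, 6.23 and 7.31 in NICD1, 8.72, 12.2 and 9.69 in NICD2, 7.03, 7.92 and 8.59 in NICD3, and 4.02, 7.004 and 5.03 in NICD4. No NICD library overlapped EV. Among the NICD groups, NICD1 overlapped NICD3 and NICD4, and NICD2 lay above the other NICD groups. The levels were 0.261, 0.413, 0.320 and 0.214 of EV (log2 changes -1.94, -1.28, -1.65 and -2.22, SE 0.19, limma adjusted p from 1.3e-07 to 6.7e-05). KIF18A, which dampens chromosome movements at the metaphase plate, changed by -1.62, -1.40, -1.28 and -1.88, and ASPM, a spindle pole protein, by -1.38, -0.96, -1.22 and -1.95. KIF15, KIF18A and ASPM stayed called lower in all 4 groups after removal of the GC trend.

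KIF11, the main motor of bipolar spindles, had 54.5, 57.6 and 58.4 CPM in EV and 39.1, 43.3 and 39.4 in NICD4. It fell by 0.27 in NICD1 and 0.49 in NICD4 on the log2 scale (SE 0.08), the first of which was lost without EV replicate 3, and after GC removal it was higher in all 4 groups (0.56, 0.37, 0.48 and 0.53, all called). KIF4A, a chromokinesin, changed by -0.70, -0.21, -0.41 and -0.90. Its NICD2 value did not pass, and its NICD3 call was lost without EV replicate 2 and after GC removal (-0.11). Its close copy KIF4B had at most 3 reads in a library. KIF2C, which depolymerises microtubules at the centromere, had 153, 153 and 155 CPM in EV and 212, 189.7 and 194 in NICD3. It rose by 0.29, 0.37 and 0.39 in NICD1, NICD3 and NICD4 (SE 0.07), not in NICD2 (0.08), and all 4 values were below 0 under library-total scaling. TPX2, the activator of AURKA at the spindle, was called in no group, with 227.5, 271.5 and 257 CPM in EV and 232, 214 and 218.5 in NICD4. Its changes of -0.16, -0.14, -0.01 and -0.18 (SE 0.08) did not pass (limma adjusted p from 0.051 to 0.89), and without the GC trend TPX2 was higher in NICD3 and NICD4, by 0.26 and 0.28, both called.

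The central spindle and cytokinesis genes fell together. All 6 were lower in NICD1, NICD3 and NICD4 and 5 in NICD2, where KIF23 did not pass. With the GC trend removed, 5, 4, 3 and 6 were called lower in NICD1 to NICD4, beside 29%, 22.4%, 27.3% and 33.4% of all genes. KIF20A (ENSG00000112984; chr5:137514408-137523404 on GRCh37), a kinesin that carries passenger proteins to the midzone, had 45.6, 62.6 and 55.2 CPM in EV, 14.7, 10.7 and 20.6 in NICD1, 24.4, 40.01 and 24.8 in NICD2, 21.6, 26.7 and 26.3 in NICD3, and 5.45, 12.8 and 8.10 in NICD4. No NICD library reached the lowest EV value. The NICD4 level was 0.154 of EV, the largest fall among the 40 genes (log2 change -2.70, 95% interval -3.31 to -2.09; limma adjusted p = 7e-07), and the changes in NICD1 to NICD3 were -1.86, -0.90 and -1.12 (SE 0.28). After removal of the GC trend they were -1.62, -0.71, -0.93 and -2.37, all called. The NICD2 call was lost without EV replicate 2, NICD2 replicate 1 or NICD2 replicate 3 (limma adjusted p from 0.056 to 0.0797).

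PRC1, which bundles midzone microtubules, changed by -1.10, -0.63, -0.70 and -1.56, and ECT2, the exchange factor that activates RhoA at the cleavage furrow, by -1.14, -0.81, -0.97 and -1.44. Both were still called lower in all 4 groups without the GC trend. ANLN, the anillin scaffold of the contractile ring, changed by -1.22, -0.56, -0.82 and -1.68, and KIF14 by -1.20, -0.81, -0.96 and -1.51. KIF23, the midzone kinesin bound to the RhoA pathway, had the smallest changes, -0.80, -0.27, -0.60 and -1.05 (SE 0.14), with 52.6, 71.6 and 69.6 CPM in EV and 49.6, 61.7 and 48.6 in NICD2. Without the GC trend ANLN was called lower in NICD1 and NICD4 only, KIF14 in all but NICD3 and KIF23 in NICD4 only. In NICD2 the call of ANLN was lost without EV replicate 2 or 3 or NICD2 replicate 1 or 3 and that of PRC1 without EV replicate 2 or NICD2 replicate 1. PRC1 shares exon sequence with the antisense gene PRC1-AS1, KIF23 with KIF23-AS1 and KIF20A with BRD8 and CDC23 on the opposite strand, and the labels do not state strand, so their reads could not be separated. On the same strand, PRC1 shares 57.57% of its exon bases with a gene that is not in the count table, and BUB1B shares 10.21% with BUB1B-PAK6, also not in it.

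The kinases and cyclins of mitotic entry were mixed, with 1 of 8 genes lower in all 4 groups and none higher in all 4. NEK2, the kinase that splits centrosomes, had 42.6, 52.6 and 52.2 CPM in EV and 12.2, 22.9 and 20.2 in NICD4, and changed by -1.13, -0.86, -0.92 and -1.45 (SE 0.19), called lower in all 4 groups with and without the GC trend. CCNA2, the cyclin of S and G2 phase, changed by -0.69, -0.27, -0.43 and -1.29, not called in NICD2. Its NICD3 call was lost without EV replicate 2 or 3 or NICD3 replicate 1 or 2, and the NICD3 value turned to 0.11 without the GC trend. The NICD1 call was lost as well without that trend (-0.02), and only the NICD4 call was left (-0.44). CDK1 had 117, 134 and 134 CPM in EV and 58.9, 77.3 and 65.9 in NICD4. It changed by -0.67, -0.28, -0.48 and -0.93 (SE 0.12), not called in NICD2. After GC removal it was 0.18, 0.22, 0.21 and 0.11 above EV, called in NICD1 to NICD3, beside medians of all genes of 0.12, 0.13, 0.10 and 0.10.

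CCNB1, the main mitotic cyclin, fell in NICD4 only, by 0.46 on the log2 scale (SE 0.12; limma adjusted p = 0.0021), and without the GC trend it was higher in all 4 groups, by 0.30 in NICD4 and up to 0.74 in NICD3. CCNB2 rose by 0.19 in NICD3 and 0.22 in NICD4 (SE 0.07). Its value was below 0 in all 4 groups under library-total scaling, and the NICD3 call was lost without NICD3 replicate 1 or 3. CDC25C, the phosphatase that activates CDK1, had 16.7, 18.1 and 16.6 CPM in EV, 20.9, 25.6 and 21.3 in NICD1 and 16.2, 14.6 and 14.7 in NICD2. It rose by 0.40 in NICD1 and 0.41 in NICD4 (SE 0.10), which library-total scaling turned to -0.03 and -0.08, and its NICD2 and NICD3 values of -0.17 and 0.21 did not pass.

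PLK1, which drives centrosome maturation and mitotic exit, was the least changed of the entry genes outside NICD3. It had 153, 162 and 154.5 CPM in EV and 197, 193 and 194 in NICD3, where it rose by 0.32 (SE 0.08; limma adjusted p = 0.0027), a value of -0.09 under library-total scaling. In NICD1, NICD2 and NICD4 it was within 0.07 of EV on the log2 scale and did not pass, and after GC removal it was called lower in NICD1 (-0.31) and NICD4 (-0.46). The NICD3 rise was then 0.095 and not called. AURKA, the centrosomal Aurora kinase, fell by 0.22 in NICD1 and 0.47 in NICD4 (SE 0.09). The NICD1 call was lost when any of 11 libraries was left out, and after GC removal the NICD1 and NICD4 values were 0.14 and 0.01. PLK1 overlaps an antisense gene, CCNA2 overlaps EXOSC9 and CDC25C overlaps FAM53C (8.78% of its exon bases), with the same limit on strand. That limit also holds for MAD2L1, NUF2, KIF18A, KIF2C, KIF4A and ANLN, which share exon bases with a gene on the opposite strand.

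Promoter sequence is shown for 3 of the genes that rose in all 4 groups and 3 that fell, because the elements known to drive G2 and M phase transcription stood in both. Each run is the 200 bases that end just before the RefSeq transcription start (GRCh38.p14), 5′ to 3′ on the gene's strand. Capitals mark the CHR motif TTTGAA or the CCAAT box, on the printed strand or, as TTCAAA or ATTGG, on the other. The stretches are chr1:43358781-43358980 (CDC20, plus strand), chr10:128126424-128126623 (MKI67, minus), chr17:8210226-8210425 (AURKB, minus), chr3:44761594-44761793 (KIF15, plus), chr5:138178912-138179111 (KIF20A, plus) and chr11:28108157-28108356 (KIF18A, minus).
CDC20: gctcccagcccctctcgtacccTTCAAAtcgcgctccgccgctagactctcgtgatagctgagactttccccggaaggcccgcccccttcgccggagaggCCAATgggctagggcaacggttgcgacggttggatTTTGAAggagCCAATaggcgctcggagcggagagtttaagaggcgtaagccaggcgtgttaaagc
MKI67: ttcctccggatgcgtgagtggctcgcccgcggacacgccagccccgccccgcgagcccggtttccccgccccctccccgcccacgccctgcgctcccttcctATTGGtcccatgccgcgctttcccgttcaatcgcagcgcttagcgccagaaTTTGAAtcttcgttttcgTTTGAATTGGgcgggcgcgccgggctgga
AURKB: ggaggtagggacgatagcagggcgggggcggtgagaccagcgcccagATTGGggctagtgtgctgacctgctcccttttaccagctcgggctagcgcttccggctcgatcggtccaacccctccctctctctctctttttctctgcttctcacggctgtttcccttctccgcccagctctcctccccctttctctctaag
KIF15: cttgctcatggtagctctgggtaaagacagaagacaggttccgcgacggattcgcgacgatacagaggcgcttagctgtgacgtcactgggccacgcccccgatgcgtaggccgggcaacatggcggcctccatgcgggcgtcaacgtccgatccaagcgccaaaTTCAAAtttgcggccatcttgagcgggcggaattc
KIF20A: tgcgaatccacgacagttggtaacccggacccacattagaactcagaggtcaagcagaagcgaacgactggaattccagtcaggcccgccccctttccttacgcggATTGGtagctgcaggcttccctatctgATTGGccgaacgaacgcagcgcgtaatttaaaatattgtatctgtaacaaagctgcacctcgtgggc
KIF18A: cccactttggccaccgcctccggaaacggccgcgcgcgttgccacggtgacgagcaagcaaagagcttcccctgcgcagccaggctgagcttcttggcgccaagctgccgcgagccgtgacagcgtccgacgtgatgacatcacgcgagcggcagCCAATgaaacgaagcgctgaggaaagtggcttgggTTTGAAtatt
CDC20 held 2 matches each to the CHR and CCAAT letters, and MKI67 had 2 of each, the last of which overlap. AURKB had only a CCAAT match in this window. Among the genes that fell, KIF15 had only a CHR match, KIF20A only CCAAT matches and KIF18A both. RefSeq windows of 300 bases (250 before to 50 after the start) were matched for 34 of the 40 genes, with 41 windows in all. AURKA, BUB3, TTK, BIRC5, TPX2 and UBE2C were not matched. TTTGAA stood in 28 of the 41 windows (68.3%) against 15.2% of 35116 windows of all genes, and CCAAT in 31 (75.6%) against 34.6%. The E2F forms TTCGCGC and TTGGCGC stood in 9.76% and 12.2% of the windows against 2.24% and 3.04%, and TGGGAA, the core of RBPJ sites through which NOTCH acts, in 36.6% against 24%. By gene, 13 of the 16 matched genes that fell in all 4 groups held TTTGAA and 10 CCAAT, and of the 4 matched risers 2 held TTTGAA and 4 CCAAT. These are matches of letters within a window, not sites shown to be bound.

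Transcript GC content ran with the split, and so did exon length. The 40 genes had a median of 42.4% GC (35.3% to 59.6%), against 49% for the 14737 tested genes with a known value. The 6 risers had 48.3% to 57.9% and the 18 that fell in all 4 groups 35.3% to 48.4%. Across the 40 genes Pearson's r of log2 change with GC was 0.71, 0.70, 0.73 and 0.71 in NICD1 to NICD4, and 0.36, 0.21, 0.31 and 0.43 across all genes, as a description over genes that share the same libraries. After removal of the trend, r across the 40 genes was still 0.38, 0.45, 0.44 and 0.39. Exon length had a median of 2139.5 bases in the 6 risers (1286 to 12807) and 5512 in the 18 that fell (3095 to 11690). Across the 40 genes Spearman's rho of log2 change with exon length was -0.52, -0.51, -0.56 and -0.52 in NICD1 to NICD4.

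Below 40% GC, all 10 members fell in NICD4 (median -1.61), beside a median of -0.94 and 80.3% called lower among all 2152 tested genes of that class. Between 45% and 50% GC, 4 of 9 members rose and 4 fell in NICD4, where 26.7% of the class rose and 50.3% fell. That class holds MKI67, CENPA and PTTG1 beside KIF20A and PRC1, at nearly equal GC: MKI67 at 48.3% rose by 1.15 and KIF20A at 48.4% fell by 2.70 on the log2 scale.

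**Figure D3:**
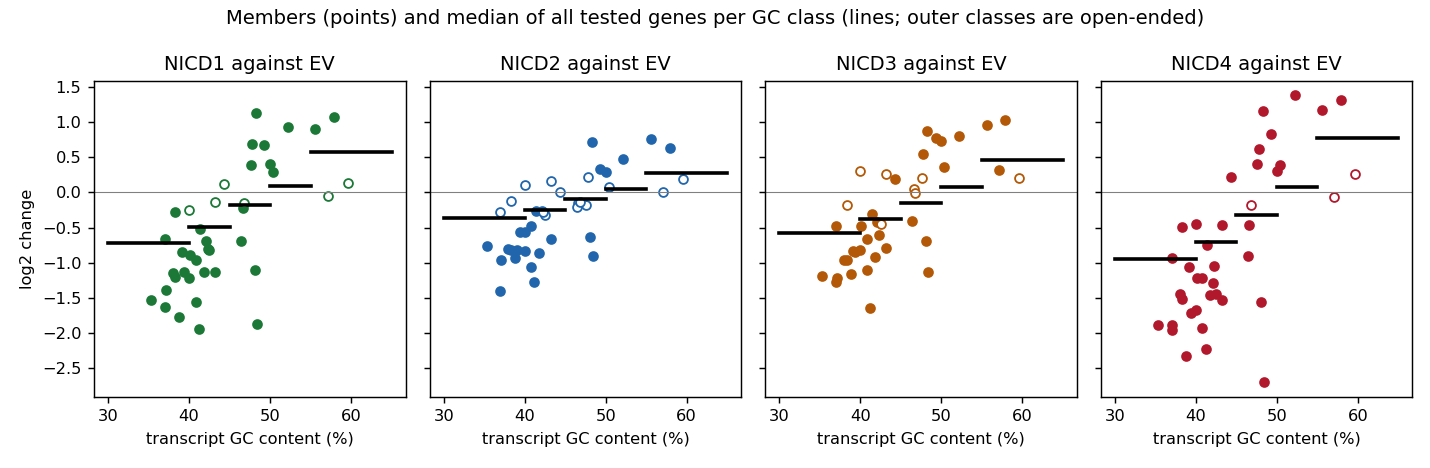
Log2 change against EV (vertical) and transcript GC content in percent (horizontal) for the 40 genes (points, filled where called), with the median of all tested genes in each of 5 GC classes (lines). The medians of all genes climb with GC content in each panel, and KIF20A, near 48% GC, lies far under the line of its class in NICD4.

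The libraries themselves differed in this respect by group. The slope of log2 level on GC content, per 10 GC points, was -0.46 to -0.35 in EV, -0.21 to -0.07 in NICD2, -0.01 to 0.12 in NICD3, 0.09 to 0.26 in NICD1 and 0.21 to 0.49 in NICD4. The mean log2 deviation of the 40 genes was 0.26 to 0.45 in EV, -0.01 to 0.18 in NICD2, -0.02 to 0.15 in NICD3, -0.29 to -0.02 in NICD1 and -0.55 to -0.20 in NICD4, so that EV and NICD4 stood at the ends of both orders and NICD2 and NICD3 overlapped. Within groups, the order of the 3 libraries by slope was the reverse of their order by the members' mean in 4 of the 5 groups. EV and NICD libraries did not overlap in slope, so the GC trend and the groups cannot be told apart. As a share of all counted reads, the 40 genes took 0.52% to 0.587% in EV and 0.423% to 0.453% in NICD4.

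**Figure D4:**
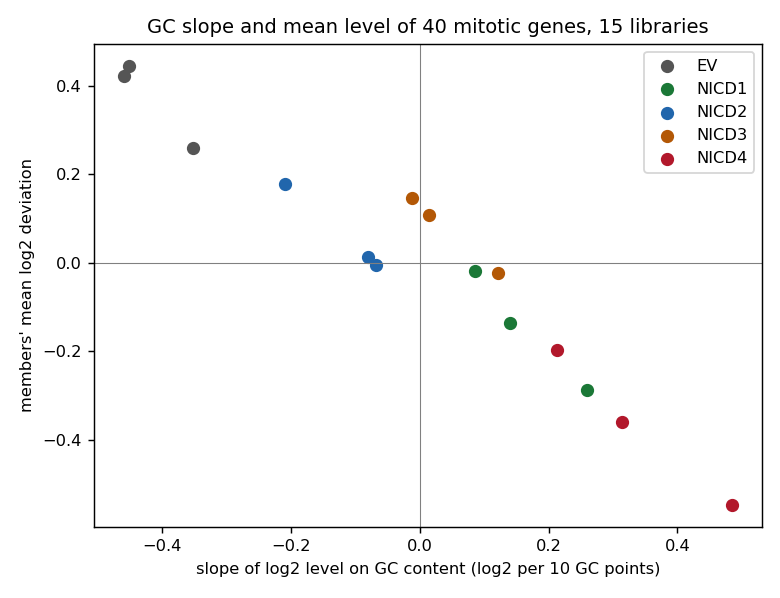
Each of the 15 libraries by the slope of its log2 levels on transcript GC content (horizontal, log2 per 10 GC points) and the mean log2 deviation of the 40 genes from their mean over libraries (vertical). EV lies at upper left and NICD4 at lower right, with NICD4 replicate 1 at the end (slope 0.49, mean -0.55).

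The calls that held with and without the GC trend were fewer, and none of the 5 spindle checkpoint genes was among those held in all 4 groups. All 6 risers were called higher in all 4 groups under both settings, against 18.2% of all genes. Of the 18 genes that fell, 8 were called lower in all 4 groups under both settings, against 13.4% of all genes: NEK2, CENPF, KIF15, KIF18A, ASPM, KIF20A, PRC1 and ECT2. Their GC content was 37% to 48.4%. For CDK1, BUB3, KIF11, CCNB1, SPC25, AURKA, CCNA2 and NDC80, at least 1 called fall had the opposite sign once the trend was removed.

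**Figure D5:**
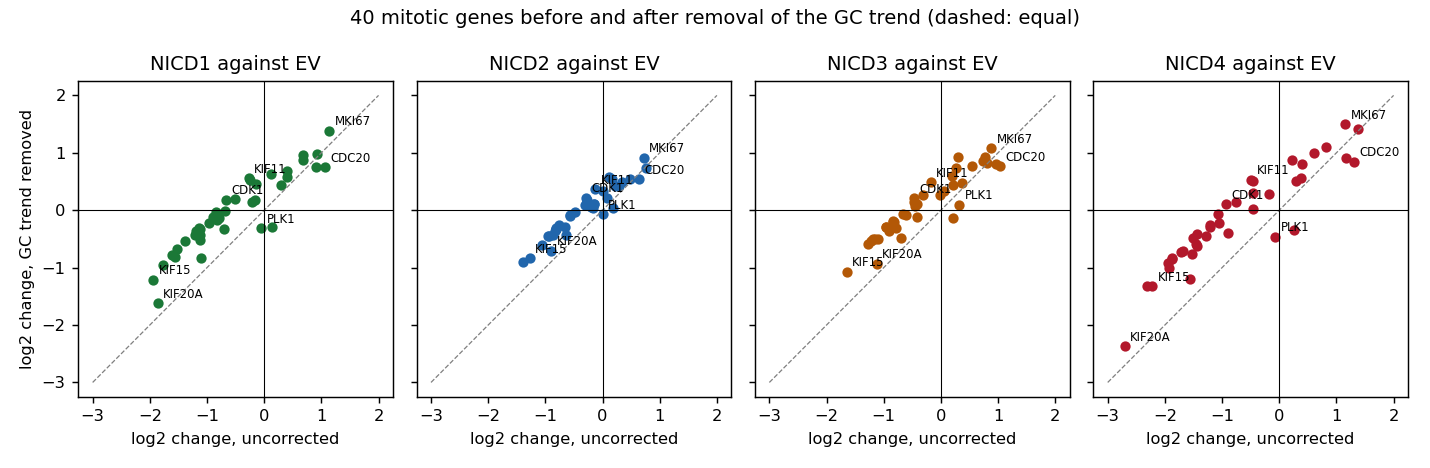
Log2 change against EV of the 40 genes as scaled (horizontal) and after removal of the GC trend (vertical), 1 panel per NICD group; the dashed line marks equal values. Most points lie above the dashed line, KIF20A and KIF15 stay well below 0 and KIF11 crosses to above 0.

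The NICD groups also differed from each other. An F-test over NICD1 to NICD4 called 35 of the 40 genes, against 68.1% of all genes, and 28 after GC removal, against 62.7%. CCNB2, INCENP, KIF18A, TPX2 and TOP2A did not pass. Most differences set NICD4 apart from NICD2 and NICD3. In NICD4 against NICD2, 26 genes were lower and 9 higher (35 of 40), where 35.3% of all genes were lower and 28.5% higher (63.9% in all). Against NICD3, 28 were lower and 2 higher (30 of 40), where 28.5% of all genes were lower and 21% higher (49.5% in all). After GC removal 18 genes were lower and 9 higher against NICD2, and 17 lower and 4 higher against NICD3. The shares of all genes after that removal are not given here for these comparisons. TOP2A turned from called lower against NICD2 (-0.25) to called higher (0.27).

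KIF20A had the largest differences, -1.8 against NICD2 and -1.58 against NICD3 (SE 0.28; limma adjusted p 0.000128 and 0.000737), followed against NICD2 by NUF2 (-1.38), MAD2L1 (-1.15) and BUB1 (-1.13). BIRC5 was higher in NICD4 than in NICD2 by 0.91 (SE 0.16). These values kept their direction and their calls without the GC trend (-1.66, -1.44, -0.86, -0.64, -0.72 and 0.87).

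NICD4 and NICD1 were closer: CCNA2 (-0.60), BUB1 (-0.63), MAD2L1 (-0.58) and KIF20A (-0.83) were lower in NICD4, 4 of 40, where 16.4% of all genes were lower and 28.4% differed in either direction. That count ranged from 0 to 22 as single libraries were left out, with 22 without NICD4 replicate 2, 13 without NICD1 replicate 2, 0 without NICD1 replicate 3, and 1 without NICD1 replicate 1, NICD4 replicate 1 or NICD4 replicate 3. It was 2 without NICD2 replicate 1, NICD3 replicate 2 or NICD3 replicate 3. NICD2 differed from NICD1 in 19 genes, 12 higher and 7 lower, where 18.6% of all genes were higher and 18.3% lower (36.9% in all). Without NICD2 replicate 2, NICD1 replicate 2 or NICD1 replicate 1 the count was 3, 4 and 9, and without the GC trend it was 12, against 31.9% of all genes.

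NICD3 differed from NICD1 only in PLK1 (0.37) and SPC25 (0.56), both higher in NICD3, where 3.68% of all genes were higher and 6.64% differed in either direction. Those calls numbered 0 without NICD1 replicate 2 or NICD3 replicate 3, 1 without NICD1 replicate 1 or NICD3 replicate 2, and 5 and 4 without NICD4 replicate 1 and 2. From NICD2, NICD3 differed in CDC25C (0.38), PLK1 (0.32), CENPA (0.33), KIF2C (0.29), UBE2C (0.44) and PTTG1 (0.44), all higher, where 8.73% of all genes were higher and 15% differed in either direction. Of these, 1 was left without NICD3 replicate 1 and 2 without NICD2 replicate 2 or 3.

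A wider list of mitotic genes was written with earlier results of these data known. Of 122 other mitotic genes tested, 83, 68, 74 and 87 fell and 24, 20, 26 and 24 rose in NICD1 to NICD4, with medians of -0.55, -0.36, -0.43 and -0.75, beside 40.7%, 31.1%, 36.8% and 45.2% of all genes lower and 34.6%, 28.6%, 32.5% and 35.7% higher. Without the GC trend 50, 32, 36 and 56 fell and 44, 36, 44 and 43 rose, beside 29%, 22.4%, 27.3% and 33.4% of all genes lower and 41.7%, 38.6%, 39.2% and 41.7% higher. The same shares of all genes apply to the lists that follow. Genes that rose included the ubiquitin-conjugating enzyme UBE2S of the anaphase-promoting complex (1.89 in NICD4), its RING subunit ANAPC11 (1.5 in NICD4) and the kinetochore genes PMF1 (1.59) and CENPM (1.54). Genes that fell included CENPK (-3.42 in NICD4), a subunit of the inner kinetochore, the cohesin gene SMC3 (-2.87) and SGO2 (-2.64), a protector of centromeric cohesion. All 7 were called in the same direction after GC removal. Most other subunits of the anaphase-promoting complex in the list went the other way from UBE2S and ANAPC11: ANAPC10 changed by -1.72, -0.86, -1.12 and -2.67 and CDC23 by -0.93, -0.52, -0.89 and -1.04, all called, CDC16 and CDC27 were called lower in 3 groups each, ANAPC5 in 4 ANAPC4 in 2 and ANAPC1 in 1, while ANAPC7 rose in 4. Apart from ANAPC10, these subunits were named after their values were seen. After GC removal ANAPC10 was called lower in NICD1 and NICD4, CDC23 in all but NICD2, CDC16 in none, and ANAPC1, ANAPC4, ANAPC5 and CDC27 had values above 0 in all 4 groups.

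Of 43 genes of DNA replication tested, 20, 12, 12 and 27 fell and 8, 7, 11 and 8 rose, with medians of -0.17, -0.03, -0.05 and -0.41, and after GC removal 7, 4, 3 and 12 fell and 23, 22, 22 and 18 rose. The licensing factor CDT1 rose by 1.59, 1.14, 1.45 and 1.8 and thymidine kinase TK1 by 1.23, 0.80, 1.30 and 1.37. The GINS subunit gene GINS4 changed by -1.5, -0.85, -0.77 and -1.91, all called. All of these kept their calls after GC removal.

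Among 23 regulators of mitotic transcription, 15, 16, 15 and 15 fell and 5, 2, 5 and 5 rose, with 13, 12, 13 and 9 lower and 7, 4, 5 and 6 higher after GC removal. FOXM1, the forkhead factor of G2 and M phase genes, had 49.8, 69.6 and 60.7 CPM in EV, 25.6, 27.3 and 30.3 in NICD1, 33.7, 50.2 and 32.6 in NICD2, 31.7, 37.3 and 38.4 in NICD3, and 18.9, 20.2 and 19.0 in NICD4. Only NICD2 overlapped EV, and the changes were -1.10, -0.64, -0.74 and -1.61 (SE 0.15; limma adjusted p from 2.7e-07 to 0.0023), with -1.26, -0.67, -0.88 and -1.88 after GC removal. MYBL2, the B-MYB partner of MuvB, rose instead, from 213, 199 and 196 CPM in EV to 643, 353 and 430 CPM in NICD4. Its changes were 0.84, 0.45, 0.74 and 1.18 (SE 0.17), and 0.35, 0.28, 0.36 and 0.50 after GC removal, all called.

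E2F1, an activator of S phase genes, rose by 0.62, 0.44 and 1.10 in NICD1, NICD3 and NICD4 (SE 0.11), and after GC removal only the NICD4 call was left (0.28), with 0.01 and -0.03 in NICD1 and NICD3. E2F4, the repressor E2F of the DREAM complex, fell by 0.32, 0.26 and 0.73 in NICD1, NICD2 and NICD4 (SE 0.10), and its NICD3 value of -0.11 did not pass. LIN54, the MuvB subunit that contacts the CHR, fell by 0.79, 0.45 and 0.83 in NICD2, NICD3 and NICD4, and after GC removal the NICD3 and NICD4 values were 0.19 and 0.17. RBL2 (p130), the pocket protein of DREAM, was low in all libraries, with 0.73, 3.15 and 2.54 CPM in EV and 0.20 to 0.89 CPM in the NICD libraries, and changed by -2.17, -1.23, -1.92 and -1.69 (SE 0.47), called in all 4 groups. CDKN1A, which encodes the p21 inhibitor of cyclin-dependent kinases, fell by 0.44 in NICD2, rose by 0.43 in NICD4 (SE 0.09; -0.05 after GC removal) and did not pass in NICD1 (-0.18) or NICD3 (0.08).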

How the data were processed

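The authors deposited log2 values per gene and library, not adjusted for depth. Reversing the transformation (2 to the value, minus 1) gave whole read counts within 0.001 for 100% of values. The submitters' processing notes name TopHat2 2.0.6, HTSeq and GRCh37, and the gene annotation and strand setting are not given in the sources used here. Libraries held 11630195 to 27704492 reads.

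Symbols, transcript GC content (longest transcript) and exon lengths came from GENCODE 29, whose build differs, so no coordinates were taken from it. A gene was tested if 3 libraries reached 0.548 CPM, which is 10 reads in a library of median size, and all libraries together held 15 reads. Counts were scaled by TMM, 1 was added (0.0544 CPM), which understates changes of low genes, and log2 values of all 15 libraries were fitted in limma 3.58.1 (R 4.3.3, statmod 1.5.0) with trended, robust variance. P-values are two-sided and adjusted by Benjamini and Hochberg over 15122 genes per comparison; a call is an adjusted p under 0.05. Values deposited as log2 were tested with limma, and no count model was run. GC removal subtracts, per library, a spline (5 degrees of freedom) of deviations on GC content.

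The 40 genes and the other lists (224 of 227 genes matched) were chosen with earlier results of these data known. All 40 genes are reported. Library values are given for the largest rise, the largest fall and the smallest change of each role and for further genes that a result turns on. From the other lists at most 5 called genes a direction were named, with 8 regulators to be named whatever their result, of which 1 is not reported here. The fit was tested on simulated data. Alternatives were other scalings, added constants and filters, limma voom, removal of GC and length trends, a replicate term, fits on the groups compared and leaving out each library.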

Additional observations from a re-analysis of the deposited data

Results flagged for a closer look

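For 3 genes all libraries of one NICD group lay above all EV libraries and all libraries of another NICD group lay below them, and the difference between those NICD groups passed limma's test. The same libraries picked these genes and gave the p-values below, so the p-values are no separate test of the pattern. The share of all genes with this pattern is not given here. CDC25C was lower in NICD2 than in NICD1 by a log2 difference of -0.568 (SE 0.10, adjusted p = 0.00106), higher in NICD3 than in NICD2 by 0.38 (adjusted p = 0.0206) and higher in NICD4 than in NICD2 by 0.579 (adjusted p = 0.000259), and after GC removal these differences were -0.642, 0.394 and 0.754. SPC25 was higher in NICD3 than in NICD1 by 0.557 (SE 0.14, adjusted p = 0.0309), or 0.396 after GC removal. CCNB1 was lower in NICD4 than in NICD2 by -0.63 (SE 0.12, adjusted p = 0.000414) and than in NICD3 by -0.726 (adjusted p = 0.000401), or by -0.245 and -0.438 after GC removal.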

How the results depend on the processing

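With 0.5 or 5 added in place of 1, all 160 changes against EV kept their direction and side of the threshold, and limma voom, median-ratio factors, no filter beyond 1 read and fits on only the groups compared reversed none. Library-total scaling gave 3 rises and 28 falls in NICD2, 6 rises in NICD3 and 5 in NICD4, and 0, 2 and 1 calls in NICD3 against NICD1, NICD4 against NICD1 and NICD3 against NICD2. It reversed CCNB2 (-0.31, -0.26, -0.21 and -0.27 in NICD1 to NICD4), KIF2C (-0.14, -0.18, -0.036 and -0.10), CDC25C (-0.033 in NICD1, -0.079 in NICD4), UBE2C (-0.024 and -0.19 in the same groups), PLK1 (-0.087) and AURKA (-0.35) in NICD3. NICD4 against NICD1 had 2 calls without the filter and 0 with only the groups compared, where NICD3 against NICD1 had 5.

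GC removal gave 15, 14 and 17 rises in NICD1 to NICD3, 11 and 12 falls in NICD2 and NICD3, and 12 calls in NICD2 against NICD1. A further 12 values changed sign without a call under either setting. Those of opposite sign with a call under at least 1 setting were, in NICD1 to NICD4, CDK1 0.18, 0.22, 0.21 and 0.11, BUB3 0.20, 0.17, 0.26 and 0.14, and KIF11 0.56, 0.37, 0.48 and 0.53; in NICD1 and NICD4 CCNB1 0.46 and 0.30, AURKA 0.14 and 0.013, and SPC25 0.52 and 0.51; in NICD3 CCNA2 0.11 and NDC80 0.14; TPX2 0.26 in NICD3 and 0.28 in NICD4; and INCENP -0.34 in NICD4. With a length trend removed as well there were 16, 14 and 17 rises and 16, 11 and 11 falls in NICD1 to NICD3, with 11 calls in NICD2 against NICD1 and 4 in NICD3 against NICD1. Again 12 values changed sign without a call, and the opposite signs with a call were then CDK1 0.15, 0.17, 0.15 and 0.090, BUB3 0.26, 0.21, 0.33 and 0.19, KIF11 0.57, 0.36, 0.49 and 0.56, CCNB1 0.35 and 0.24, AURKA 0.11 and 0.0072, SPC25 0.30 and 0.36, TOP2A 0.0068 in NICD1, NDC80 0.060 in NICD3, and TPX2 0.21, 0.25 and 0.30 in NICD1, NICD3 and NICD4. The cause was not tested.

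Replicate numbers did not pair the samples: deviations of same-numbered libraries correlated from -0.43 to 0.36, 13 of 30 pairs over 0.1, and 5 of 15 libraries correlated best with their own number. The replicate block moved NICD4 against NICD1 from 4 to 7 calls and no other count by over 1.5 times. With the replicate block and GC removal together, rises were 15, 14 and 17 in NICD1 to NICD3, falls 11 and 13 in NICD2 and NICD3, and the opposite signs had the values of GC removal alone.

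Leaving out single libraries reversed no called value. It gave 3 to 7 rises and 9 to 19 falls in NICD2, and between NICD groups 3 to 24 calls for NICD2 against NICD1, 0 to 5 for NICD3 against NICD1, 0 to 22 for NICD4 against NICD1 and 1 to 8 for NICD3 against NICD2. Of 2400 values so obtained, 65 lost and 28 gained a call. Genes here had at least 39 reads in every library.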
